A study of Mus musculus with 30 samples.

Results

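The TNF superfamily ligands and receptors described here are the genes whose symbols have the form Tnfsf or Tnfrsf followed by a number and at most one letter. The rule found 31 of the 26264 gene symbols counted, 11 ligands and 20 receptors, and used no measured value. Of these, 30 had enough counts to be tested, 10 ligands and 20 receptors. The exception, Tnfsf4 (the ligand OX40L), had 0 counts over the 6 uninjured libraries, 42 counts over the 6 libraries of day 4, 18 on day 7, 0 on day 11 and 2 on day 15.

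The libraries were made from total RNA of the mouse tibialis anterior, a shin muscle that lifts the foot, in both sexes. The injury was volumetric muscle loss, the cutting out of part of the muscle, and tissue was collected at day 4, 7, 11 or 15 after it or from uninjured muscle. Each sex and time had 3 libraries, so each time had 6 and the series 30, and strain, age and injury size are not given in the labels used here. Whether each library is a different animal, and whether uninjured muscle was the other leg of an injured mouse, is not in the labels, so all p-values reflect the spread between these libraries alone.

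TNF superfamily ligands are mostly trimers anchored in the cell membrane or cut loose from it, and they bind receptors that cluster on the target cell. Receptors with a death domain can start apoptosis or necroptosis, while most others recruit TRAF adaptors and activate NF-kappaB; decoy receptors bind ligand without passing on a signal. Many members act between immune cells, and a few, such as Fn14 and its ligand TWEAK, are known to act on muscle cells and their precursors.

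Total counts ran from 13089999 to 57277336 per library, lowest at day 15 (13089999 to 30024528), where low members are measured least precisely. Levels are given as CPM, counts scaled to a common library total after correction with TMM factors. Those factors averaged 0.527 in uninjured libraries and 1.08 to 1.3 at the 4 days, so fold changes against uninjured muscle depend on the scaling: with library size alone, the median log2 fold change of all 17136 tested genes at the 4 days was 1.30 to 1.47, against 0.17 to 0.32 with TMM. The labelled tissue was checked on 8 mature fast fibre genes, whose summed level was 304000 to 442000 CPM in uninjured muscle, and 9070 to 56900 CPM at day 4, 19400 to 138000 on day 7, 54200 to 129000 on day 11 and 58600 to 119000 on day 15. In the library labelled female day 11 replicate 3, Y-linked transcripts go against the label, and it had the lowest macrophage marker sum of day 11. Female day 4 replicate 2 had the lowest fibre sum of all libraries and the highest macrophage marker sum. In such bulk tissue, fewer cells of a type and less RNA per cell cannot be told apart.

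The promoter windows of 4 receptors are shown because 3 of them, Tnfrsf1b, Tnfrsf11a and Tnfrsf13b, changed together over the time course, and the fourth, Tnfrsf8, held 2 of the motifs searched. Each runs from 250 bases before the start site to 50 bases from it on, 5′ to 3′ on the gene's strand, in RefSeq's GRCm38.p6, a different build from the mm39 of the counts. Capitals mark a motif match.
Tnfrsf1b, chr4:145246821-145247120, minus strand: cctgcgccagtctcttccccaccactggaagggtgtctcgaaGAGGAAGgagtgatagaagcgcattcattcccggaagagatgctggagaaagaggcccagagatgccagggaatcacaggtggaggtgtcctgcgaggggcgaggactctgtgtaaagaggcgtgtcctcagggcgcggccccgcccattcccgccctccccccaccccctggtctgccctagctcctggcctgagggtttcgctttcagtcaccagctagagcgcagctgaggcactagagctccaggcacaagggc
Tnfrsf11a, chr1:105780473-105780772, plus strand: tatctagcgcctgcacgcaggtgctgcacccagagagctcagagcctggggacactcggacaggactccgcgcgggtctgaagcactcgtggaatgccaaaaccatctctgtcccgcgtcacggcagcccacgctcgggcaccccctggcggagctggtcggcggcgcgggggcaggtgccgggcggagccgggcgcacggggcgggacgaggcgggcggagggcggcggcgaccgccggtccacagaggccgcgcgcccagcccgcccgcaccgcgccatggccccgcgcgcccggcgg
Tnfrsf13b, chr11:61126505-61126804, plus strand: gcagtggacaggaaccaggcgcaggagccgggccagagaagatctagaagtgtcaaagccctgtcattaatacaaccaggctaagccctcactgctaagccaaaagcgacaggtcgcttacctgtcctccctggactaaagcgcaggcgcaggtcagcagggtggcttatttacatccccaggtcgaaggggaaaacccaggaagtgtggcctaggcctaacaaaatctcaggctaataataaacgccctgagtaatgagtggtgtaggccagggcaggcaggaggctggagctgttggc
Tnfrsf8, chr4:145315115-145315414, minus strand: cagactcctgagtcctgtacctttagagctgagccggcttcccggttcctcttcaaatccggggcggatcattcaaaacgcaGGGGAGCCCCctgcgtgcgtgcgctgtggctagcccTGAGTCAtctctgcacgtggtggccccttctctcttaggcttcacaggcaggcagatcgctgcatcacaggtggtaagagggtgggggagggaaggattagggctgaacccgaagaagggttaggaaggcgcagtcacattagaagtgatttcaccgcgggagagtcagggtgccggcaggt
The motifs searched on both strands were an ETS motif (GAGGAAG), the AP-1 motif (TGANTCA) and the NF-kappaB consensus. Among the 32851 promoters in the RefSeq table, 13.6% held the ETS letters, 7.81% the AP-1 letters and 4.51% the NF-kappaB motif. The table held 28 promoters of 24 members. Counted by promoter, like the shares above, 3 of the 28 held the ETS motif, 6 the AP-1 motif and 2 the NF-kappaB motif. By gene, 3 of the 24 held the ETS motif (Tnfrsf1b, Tnfrsf25 and Tnfsf18). The AP-1 motif was in 5 (Tnfrsf8, Tnfrsf9, Tnfsf13, Tnfsf13b and Tnfsf14) and the NF-kappaB motif in 2 (Tnfrsf8 and Tnfrsf9). The ETS match of Tnfrsf1b begins 208 bases before the start site, and the matches of Tnfrsf8 begin 132 (AP-1) and 168 (NF-kappaB) bases before it. A match is a run of letters and not a bound site, and the windows of Tnfrsf11a and Tnfrsf13b held none of the 3 motifs.

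Most members were higher in injured than in uninjured muscle. At day 4, 25 of the 30 tested members rose, 2 fell and 3 did not pass the test, where 73.1% of all tested genes passed, 40.1% higher and 33% lower (edgeR quasi-likelihood test, Benjamini-Hochberg adjusted p under 0.05 over all tested genes). At day 7, 24 rose and 1 fell, where 71.5% of all genes passed, 41.6% higher and 29.9% lower. At day 11, 21 rose and 1 fell, where 72.4% passed, 42.7% higher and 29.7% lower. At day 15, 20 rose and 1 fell, where 69% passed, 39.7% higher and 29.3% lower. The median log2 fold change of the members was 2.27 on day 4, 2.01 on day 7, 1.96 on day 11 and 1.73 on day 15, against medians of 0.17, 0.24, 0.32 and 0.26 over all tested genes. With library size alone the counts that rose were 29, 30, 30 and 27 and none fell, where 73.5%, 73.9%, 73.8% and 69.8% of all genes rose. The shares of all genes that fell were 8.65%, 7.07%, 8.08% and 7.94%.

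Some of these counts follow from the filter on low counts. It was passed by 13 members through injured libraries alone, a route that favours members higher after injury. They were Tnfrsf9, Tnfrsf11b, Tnfrsf13b, Tnfrsf13c, Tnfrsf14, Tnfrsf17, Tnfrsf18, Tnfsf8, Tnfsf9, Tnfsf11, Tnfsf14, Tnfsf15 and Tnfsf18. Their calls (12, 12, 10 and 9 higher at the 4 days, none lower) support nothing. The adjusted p values given for them below carry the same limit. Of the other 17 members, which cleared the filter level in at least 3 uninjured libraries, 13 rose and 2 fell at day 4, 12 rose and 1 fell at day 7, and 11 rose and 1 fell at day 11 and at day 15. In these 17 the median log2 fold change was 1.47, 1.24, 1.44 and 1.35 at days 4, 7, 11 and 15. Among all tested members, all 6 libraries of day 4 lay above all 6 uninjured ones for 22 and below them for 2. This was so for 31% and 25.9% of all tested genes. The counts of wholly separated members, here and at the later days, include members that passed the filter through injured libraries alone. The filter favours them here too, so these counts are no separate support. At days 7, 11 and 15, 13 members lay wholly above, where 24.9%, 25.8% and 24.1% of all genes did, and 0, 0 and 1 wholly below, where 19.3%, 20.5% and 21.1% did.

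By time course, 20 members rose at all 4 days, Tnfrsf19 fell at all 4, Tnfrsf21 and Tnfsf10 passed the test at none, and 7 passed at some. Of all tested genes, 28.7% rose at all 4 days, 22% fell at all 4 and 9.8% passed at none. At day 4, 9 of 10 ligands and 16 of 20 receptors were higher, and 7 of 10 and 13 of 20 on day 15. These counts and the 20 above include members that passed the low-count filter through injured libraries alone. The ligands that did so were Tnfsf8, Tnfsf9, Tnfsf11, Tnfsf14, Tnfsf15 and Tnfsf18. The counts therefore cannot compare ligands with receptors. The mean level was highest at day 4 for 16 members, at day 11 for 7, at day 7 for 3, and in uninjured muscle or at day 15 for 2 each. The falls of Tnfrsf19 at days 4, 7 and 11 turned to rises when libraries were scaled by size alone.

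**Figure D1:**
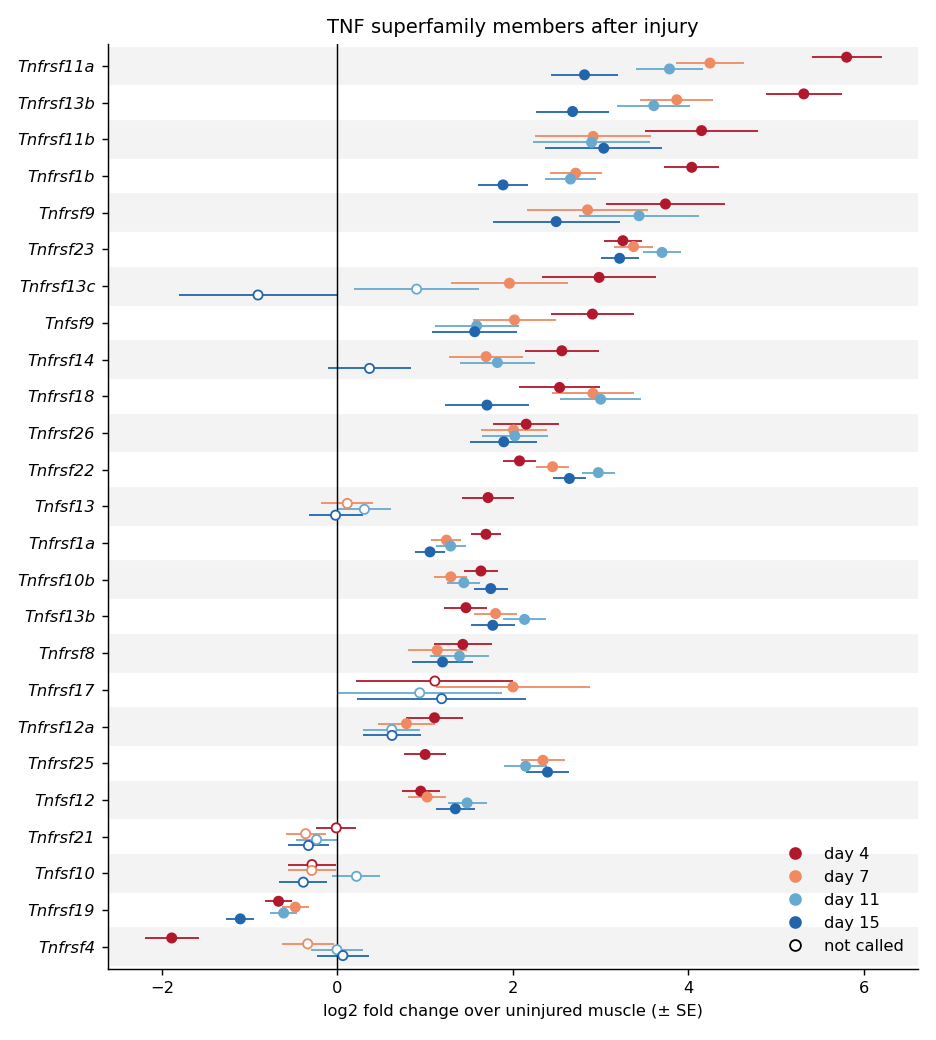
Log2 fold change against uninjured muscle (x axis) with its SE for 25 tested members (rows) at days 4, 7, 11 and 15; filled points passed edgeR's test at an adjusted p under 0.05 and open points did not, and 5 ligands with 6 or fewer uninjured counts are left out. Tnfrsf11a, Tnfrsf13b, Tnfrsf11b and Tnfrsf1b lie farthest right at day 4 (4.04 to 5.81) and have smaller values at day 15 (1.89 to 3.04), while Tnfrsf22 and Tnfrsf23 hold their place; Tnfrsf19 lies left of 0 with these TMM factors at all 4 days, and right of 0 at days 4, 7 and 11 with library size alone.

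The 2 receptors for TNF itself both rose at every day, with different sizes. Tnfrsf1a (TNFR1, the death domain receptor found on most cells) had 23.7 to 38.8 CPM in uninjured muscle (median 32.9), 94.2 to 125 on day 4 (median 102), 54.5 to 103 on day 7 (79.4), 58.5 to 107 on day 11 (76.5) and 48.0 to 83.2 on day 15 (68.8). Every injured library was above every uninjured one. In log2 terms the change was 1.69 ± 0.17 (SE) on day 4 (adjusted p = 4e-09) and 1.06 ± 0.17 on day 15 (adjusted p = 6.72e-06). Tnfrsf1b (TNFR2, carried mainly by leukocytes and endothelium) had 5.08 to 8.55 CPM in uninjured muscle (median 5.84), 84.8 to 123 on day 4 (107), 24.2 to 58.4 on day 7 (43.4), 18.9 to 72.7 on day 11 (40.0) and 14.3 to 35.1 on day 15 (26.1). All injured libraries were again above all uninjured ones, and day 4 lay wholly above days 7, 11 and 15. The log2 fold change of Tnfrsf1b was 4.04 ± 0.31 on day 4 (adjusted p = 4.61e-11), 2.72 ± 0.30 on day 7, 2.66 ± 0.29 on day 11 and 1.89 ± 0.29 on day 15 (adjusted p = 3.17e-06).

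**Figure D2:**
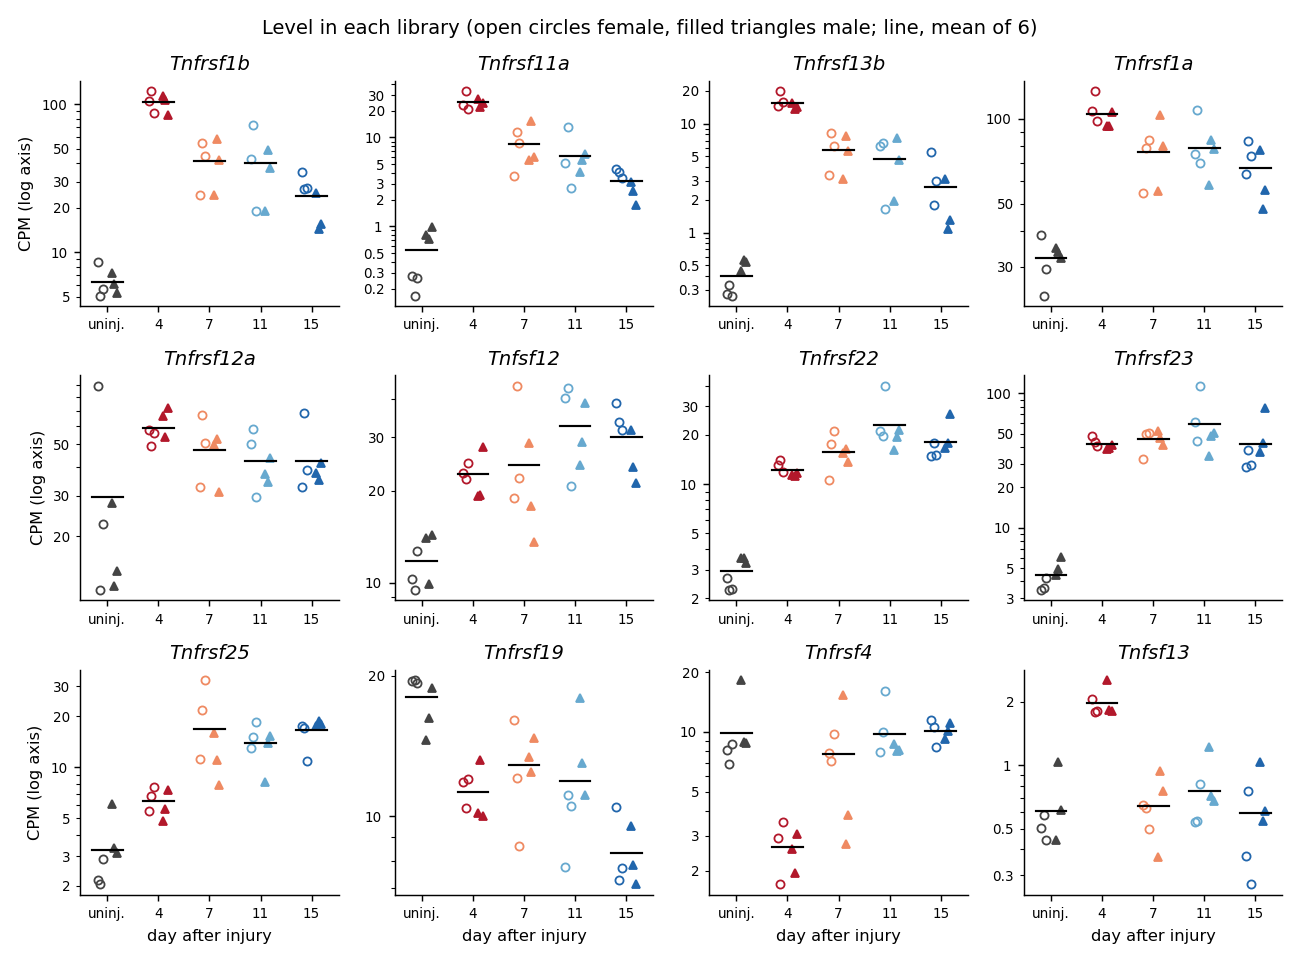
CPM (log axis) of 12 members in each library at uninjured, day 4, day 7, day 11 and day 15; open circles are female and filled triangles male libraries, and the short line marks the mean of 6 libraries. Tnfrsf1b, Tnfrsf11a and Tnfrsf13b are highest at day 4, Tnfrsf22, Tnfrsf23 and Tnfrsf25 stay up to day 15, Tnfrsf4 dips at day 4 under this scaling, and 1 uninjured library stands far above the others for Tnfrsf12a.

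At day 4 and day 7, Tnfrsf11a and Tnfrsf13b had the largest fold changes among members with counts in every uninjured library, Tnfrsf13b having passed the low-count filter through injured libraries alone. Tnfrsf11a encodes RANK, the receptor through which RANKL drives osteoclast formation from myeloid precursors. Its level was 0.167 to 0.992 CPM in uninjured muscle (median 0.499), 20.7 to 33.1 on day 4 (23.8), 3.67 to 15.4 on day 7 (7.34), 2.70 to 13.1 on day 11 (5.37) and 1.74 to 4.44 on day 15 (3.31). No injured library came down to the uninjured range. As a log2 fold change this was 5.81 ± 0.40 on day 4 (adjusted p = 9.57e-12), 4.25 ± 0.38 on day 7, 3.79 ± 0.38 on day 11 and 2.82 ± 0.38 on day 15 (adjusted p = 6.26e-07). Tnfrsf13b encodes TACI, a receptor for BAFF and APRIL best known on B cells and also found on macrophages. Its level was 0.264 to 0.561 CPM in uninjured muscle (median 0.388), 13.6 to 19.8 on day 4 (15.1), 3.13 to 8.16 on day 7 (5.88), 1.64 to 7.39 on day 11 (5.44) and 1.08 to 5.55 on day 15 (2.37). Here too every injured library was above every uninjured one, with log2 fold changes of 5.32 ± 0.43 on day 4 (adjusted p = 1.04e-10) and 2.68 ± 0.42 on day 15 (adjusted p = 4.24e-06).

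The macrophage markers moved with these receptors, and so did some other lists, while T cell and fibroblast marker sums had their highest median at day 11. Median sums in uninjured muscle, at day 4 and at day 15 were 6.63, 63.5 and 25.1 CPM for dendritic cell markers. For neutrophil markers they were 1.59, 51.9 and 9.03 CPM, and for satellite cell and myoblast markers 106, 3010 and 327 CPM. All 10 macrophage markers rose at each of the 4 days, where 40.1%, 41.6%, 42.7% and 39.7% of all tested genes did. Their summed level was 27.0 to 38.9 CPM in uninjured muscle (median 32.0), 1540 to 2210 on day 4 (1880), 454 to 1440 on day 7 (799), 177 to 1660 on day 11 (731) and 184 to 813 on day 15 (447). None of the 10 was at 0 in any group, and Adgre1 (F4/80) had 45.2 to 117 CPM at day 4, against 0.417 to 2.08 CPM in uninjured muscle (6.23 ± 0.52, adjusted p = 1.33e-10). Within a time the library with the highest or lowest marker sum was in some cases, and not in others, the extreme one for the receptors. At day 15, female replicate 1 had the highest marker sum (813 CPM) and the highest level of Tnfrsf1b (35.1 CPM), Tnfrsf11a (4.44 CPM) and Tnfrsf13b (5.55 CPM) of its 6 libraries. At day 11, the library labelled female replicate 3 had the lowest sum (177 CPM) and the lowest Tnfrsf1b (18.9 CPM), Tnfrsf11a (2.70 CPM) and Tnfrsf13b (1.64 CPM). At day 4, female replicate 2 had the highest sum and the highest level of all 3 receptors, while female replicate 1, with the lowest sum (1540 CPM), ranked 3 of 6 from the bottom for all 3. Among uninjured libraries, male replicate 2 had the highest sum and ranked 4 of 6 for Tnfrsf1b and Tnfrsf11a and 6 of 6 for Tnfrsf13b. Without female day 4 replicate 2 the day 4 log2 fold changes were 3.96 for Tnfrsf1b, 5.67 for Tnfrsf11a and 5.23 for Tnfrsf13b. The part of macrophage content in these changes was not tested.

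**Figure D3:**
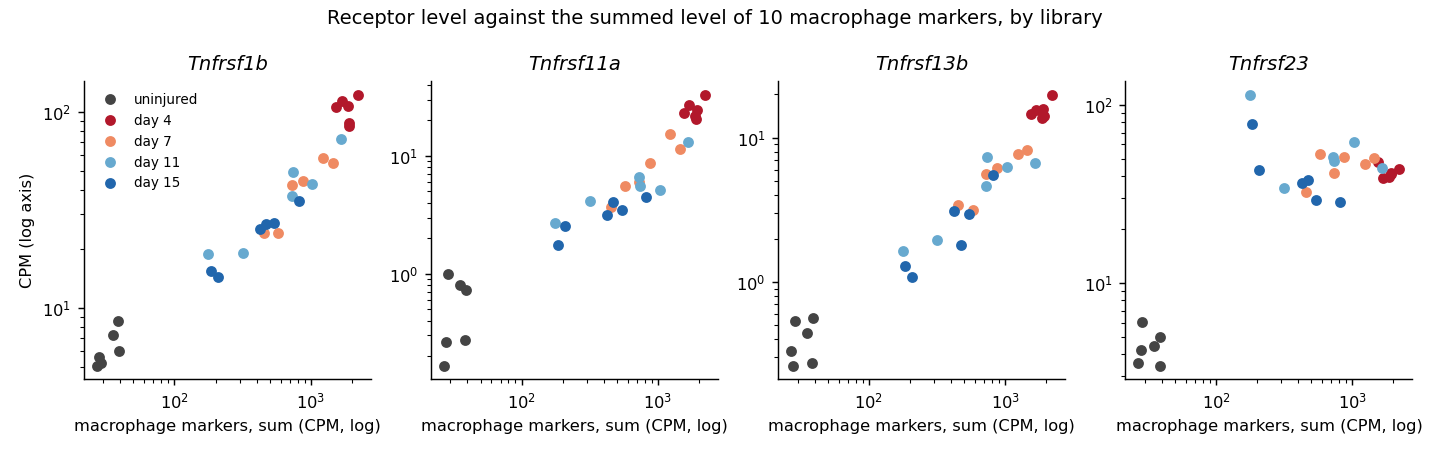
CPM of Tnfrsf1b, Tnfrsf11a, Tnfrsf13b and Tnfrsf23 (y axes, log) against the summed CPM of 10 macrophage markers (x axis, log) in 30 libraries, coloured by time. For the first 3 receptors the times lie along a rising band, from 32.0 CPM of markers (uninjured median) to 1880 CPM (day 4 median). Within a time the libraries did not all follow it. Tnfrsf1b was 106 CPM in female day 4 replicate 1 (sum 1540 CPM) and 84.8 CPM in male day 4 replicate 3 (1917 CPM). For Tnfrsf23 the injured libraries lie between 28.5 and 114 CPM. The 2 highest, at 114 and 77.9 CPM, have the 2 lowest marker sums of the injured libraries, 177 and 184 CPM. Male day 11 replicate 1, with a sum of 318 CPM, had 34.2 CPM of Tnfrsf23.

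RANKL, the ligand of RANK, was encoded by one of the rarest members. Tnfsf11 had 0 counts in all 6 uninjured libraries, 359 counts over the 6 libraries of day 4, 205 on day 7, 104 on day 11 and 18 on day 15. All 6 day 4 libraries had counts (0.366 to 1.84 CPM), while libraries at 0 occurred at days 7, 11 and 15. Against a floor of 6 counts over the uninjured group, which is 3 read pairs, Tnfsf11 was at least 21.1-fold higher at day 4 and at least 2.89-fold higher at day 15. It passed the test at all 4 days (adjusted p = 7.58e-05 on day 4 and 0.0231 on day 15), but male day 15 replicate 1 held 10 of the 18 counts of day 15, and without it the male libraries of both groups were at 0 and the call was lost (adjusted p = 1). The decoy receptor that soaks up RANKL, osteoprotegerin (Tnfrsf11b), had 0 to 0.229 CPM in uninjured muscle (median 0.0818), 0.850 to 3.47 on day 4 (1.24), 0.0920 to 1.51 on day 7 (0.575), 0.225 to 1.04 on day 11 (0.586) and 0.324 to 1.01 on day 15 (0.696). At day 4 and day 15 its libraries lay wholly above the uninjured ones, and at days 7 and 11 the groups overlapped. Its log2 fold change was 4.15 ± 0.65 on day 4 (adjusted p = 2.96e-06) and 3.04 ± 0.67 on day 15 (adjusted p = 0.000297).

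Of 10 genes known as RANK targets or osteoclast genes, 7 rose and 1 fell at days 4, 7 and 11. At day 15, 5 rose and 1 fell. Over all tested genes, 40.1%, 41.6%, 42.7% and 39.7% rose at the 4 days, and 33%, 29.9%, 29.7% and 29.3% fell. With library size alone 9 of the 10 rose at days 4, 7 and 11 and 8 on day 15, and none fell. Among genes with a mean of at least 1 CPM, the 3 largest at day 4 were Atp6v0d2, a proton pump subunit of osteoclasts that macrophages also express, Acp5, the tartrate-resistant acid phosphatase, and Ctsk, cathepsin K. Atp6v0d2 had 8.35 to 41.2 CPM at day 4 (median 25.7), against 0 to 0.0886 CPM in uninjured muscle, where it had 6 counts in all. Acp5 had 36.0 to 66.1 CPM at day 4, against 0.241 to 1.02 CPM in uninjured muscle (log2 fold change 6.79 ± 0.61, adjusted p = 5.34e-10). Ctsk had 54.2 to 68.5 CPM at day 4, against 2.00 to 5.69 CPM in uninjured muscle (4.02 ± 0.41, adjusted p = 4.04e-09), and fibroblasts are known to express it as well. Nfatc1, the transcription factor that RANK induces in osteoclast precursors, was named after its values were seen and had log2 fold changes of -0.63 ± 0.12 on day 4 (adjusted p = 3.64e-05) and -0.11 ± 0.12 on day 15 (adjusted p = 0.389), and with library size alone its values at the 4 days were 0.66 to 0.93.

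TWEAK and its receptor Fn14 act on myoblasts and muscle fibres. Tnfsf12 (TWEAK) had 9.46 to 14.3 CPM in uninjured muscle (median 11.5), 19.2 to 27.9 on day 4 (22.4), 13.6 to 44.3 on day 7 (20.5), 20.7 to 43.6 on day 11 (33.9) and 21.2 to 38.7 on day 15 (31.7). The groups overlapped only at day 7. On the log2 scale the fold change was 0.95 ± 0.22 on day 4 (adjusted p = 0.000404), 1.48 ± 0.22 on day 11 (adjusted p = 1.96e-06) and 1.35 ± 0.22 on day 15. The annotation (GENCODE vM21) has the readthrough gene Tnfsfm13 on the same strand over 48.3% of the exon bases of Tnfsf12 and 60.0% of those of Tnfsf13, so how reads were split between the 3 is not known and the values of Tnfsf12 and Tnfsf13 are uncertain.

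Tnfrsf12a (Fn14) had 11.7 to 89.8 CPM in uninjured muscle (median 18.4), 49.4 to 71.8 on day 4 (56.8), 31.0 to 66.95 on day 7 (50.2), 29.7 to 58.2 on day 11 (40.5) and 32.6 to 68.5 on day 15 (38.2). The top of the uninjured range was 1 library, female uninjured replicate 1, above every injured library, while the other uninjured libraries reached at most 28.0 CPM, below every injured one. In log2 terms the change was 1.11 ± 0.33 on day 4 (adjusted p = 0.00394) and 0.79 ± 0.33 on day 7 (adjusted p = 0.0334), and it did not pass the test at day 11 (0.62 ± 0.33, adjusted p = 0.0889) or day 15 (0.62 ± 0.33, adjusted p = 0.0909). Without female uninjured replicate 1 the values at the 4 days were 1.74, 1.42, 1.26 and 1.26 and all passed (adjusted p = 0.000142 on day 15). Without male uninjured replicate 1, days 11 and 15 also passed (0.85 at each). Leaving out any 1 of 15 other libraries ended the call at day 7 (adjusted p = 0.0547 to 0.103).

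TRAIL, a ligand that can kill cells through death receptors, did not pass the test while all 4 of its receptors or relatives measured did. Tnfsf10 (TRAIL) had 6.07 to 16.8 CPM in uninjured muscle (median 13.6), 5.82 to 13.0 on day 4 (10.2), 7.06 to 16.7 on day 7 (7.96), 8.53 to 19.2 on day 11 (14.5) and 5.30 to 10.7 on day 15 (10.1). All groups overlapped, with log2 fold changes from -0.39 ± 0.28 on day 15 (adjusted p = 0.212) to 0.22 ± 0.27 on day 11 (adjusted p = 0.479), and with library size alone values of 0.63 to 1.36. Tnfrsf10b, the mouse death receptor for TRAIL, had 2.12 to 5.98 CPM in uninjured muscle (median 3.19), 9.54 to 12.8 on day 4 (10.6), 6.83 to 10.4 on day 7 (8.73), 8.27 to 11.8 on day 11 (9.17) and 8.47 to 19.2 on day 15 (10.3). Every injured library was above every uninjured one. Its log2 fold change was 1.64 ± 0.19 on day 4 (adjusted p = 3.22e-08) and 1.75 ± 0.19 on day 15 (adjusted p = 2.83e-08).

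Tnfrsf22, Tnfrsf23 and Tnfrsf26 lie together on chromosome 7, and Tnfrsf22 and Tnfrsf23 are known in the mouse as decoy receptors for TRAIL. Tnfrsf23 had 3.45 to 6.07 CPM in uninjured muscle (median 4.33), 38.7 to 48.0 on day 4 (41.2), 32.5 to 52.9 on day 7 (48.4), 34.2 to 114 on day 11 (49.8) and 28.5 to 77.9 on day 15 (37.2). Tnfrsf22 had 2.25 to 3.54 CPM in uninjured muscle (median 2.97), 11.2 to 13.9 on day 4 (11.7), 10.6 to 21.1 on day 7 (15.9), 16.1 to 40.0 on day 11 (20.4) and 14.9 to 26.6 on day 15 (17.2). For both, the injured and uninjured libraries did not overlap at any day. The log2 fold change of Tnfrsf23 was 3.25 ± 0.22 on day 4 (adjusted p = 6.65e-12) and 3.22 ± 0.22 on day 15 (adjusted p = 7.27e-11), and day 15 against day 4 gave -0.04 ± 0.20 (adjusted p = 0.887). Tnfrsf22 gave 2.08 ± 0.18 on day 4 (adjusted p = 3.54e-10), 2.97 ± 0.19 on day 11 and 2.65 ± 0.19 on day 15, and rose by 0.57 ± 0.17 on day 15 against day 4 (adjusted p = 0.00747). The highest day 11 values of both genes came from the library labelled female day 11 replicate 3, and without it the day 11 log2 fold change was 3.43 for Tnfrsf23 and 2.73 for Tnfrsf22. That library had the lowest macrophage marker sum of day 11. Male day 15 replicate 3, highest for both genes at day 15 (77.9 CPM of Tnfrsf23 and 26.6 CPM of Tnfrsf22), had the lowest sum of day 15. Other libraries went the other way. Female day 7 replicate 1 had the lowest sum (454 CPM) and the lowest Tnfrsf23 (32.5 CPM) of day 7. Male day 11 replicate 1 had the lowest Tnfrsf23 of day 11 (34.2 CPM) at a sum of 318 CPM. Whether these receptors and the markers are linked was not tested.

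Of the 50-base words in Tnfrsf22, 17.3% also occur in Tnfrsf23, and of those in Tnfrsf23, 18% occur in Tnfrsf22, so reads could have been split between them and each value is uncertain to that extent. Tnfrsf26 had 0.264 to 0.735 CPM in uninjured muscle (median 0.524), 1.11 to 2.93 on day 4 (2.55), 1.10 to 3.04 on day 7 (1.92), 0.947 to 3.00 on day 11 (2.29) and 1.03 to 2.65 on day 15 (2.24). It too was above the uninjured range in every injured library, with log2 fold changes of 2.15 ± 0.37 on day 4 (adjusted p = 1.4e-05) and 1.90 ± 0.38 on day 15 (adjusted p = 0.000102). A gene on the opposite strand covers 4.1% of the exon bases of Tnfrsf23 and 3.3% of those of Tnfrsf26, and the handling of strand is not given in the sources used here.

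BAFF and APRIL, which keep B cells and plasma cells alive, differed in timing. Tnfsf13b (BAFF) had 0.250 to 0.722 CPM in uninjured muscle (median 0.569), 1.02 to 2.26 on day 4 (1.31), 1.33 to 2.48 on day 7 (1.60), 1.35 to 3.47 on day 11 (2.22) and 1.13 to 2.83 on day 15 (1.66). No injured library was as low as an uninjured one. Its fitted log2 fold change was 1.47 ± 0.25 on day 4 (adjusted p = 8.43e-06), 2.13 ± 0.25 on day 11 (adjusted p = 4.78e-08) and 1.77 ± 0.25 on day 15. Tnfsf13 (APRIL) had 0.440 to 1.04 CPM in uninjured muscle (median 0.544), 1.79 to 2.54 on day 4 (1.82), 0.368 to 0.943 on day 7 (0.640), 0.537 to 1.22 on day 11 (0.694) and 0.272 to 1.03 on day 15 (0.575). Day 4 lay above every other time without overlap. The log2 fold change of Tnfsf13 was 1.72 ± 0.29 on day 4 (adjusted p = 1.08e-05) and 0.11 ± 0.30 on day 7 (adjusted p = 0.742), and day 7 against day 4 gave -1.60 ± 0.28 (adjusted p = 0.000347).

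The other 2 receptors of BAFF and APRIL, both borne mainly by B lineage cells, stayed under a mean of 1 CPM at every time. Tnfrsf13c (BAFF receptor) had 14 counts over the uninjured libraries, 314 on day 4, 104 on day 7, 38 on day 11 and 8 on day 15. It rose at day 4 (2.98 ± 0.65, adjusted p = 0.000229) and day 7 (1.96 ± 0.67, adjusted p = 0.0114), and did not pass at day 11 or day 15; without female day 15 replicate 2 its day 15 value was -3.29 and passed (adjusted p = 0.0341). Tnfrsf17 (BCMA, of plasma cells) had 8, 53, 62, 25 and 19 counts at the 5 times and passed the test at day 7 (2.00 ± 0.87, adjusted p = 0.0431), a call that leaving out any 1 of 14 libraries ended (adjusted p = 0.0502 to 0.0954), while without male or female uninjured replicate 2 it passed at day 4 (3.21 to 3.26). Of 10 B and plasma cell markers, 3 rose and 3 fell at day 4 and 5 rose and none fell at day 15, and with library size alone 5 rose at day 4 and 10 on day 15, with none lower. Their summed level was 48.9 to 82.5 CPM at day 4, against 6.96 to 18.1 CPM in uninjured muscle, and none was at 0. Their median log2 fold change at day 4 was -0.02, so the sum does not stand for the list as a whole. For comparison, 40.1% of all tested genes rose at day 4 and 33% fell, and at day 15 39.7% rose and 29.3% fell. Cd79a, a subunit of the B cell receptor, had 0.420 to 1.66 CPM at day 4, against 0.264 to 1.29 CPM in uninjured muscle (adjusted p = 0.623). What share of Tnfrsf13b and Tnfrsf13c came with B cells was not tested.

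The co-stimulatory pairs, through which antigen presenting cells and T cells signal to each other, were mostly at low levels. Tnfsf9 (the CD137 ligand) had 0 to 0.561 CPM in uninjured muscle (median 0.293), 1.45 to 3.13 on day 4 (1.90), 0.506 to 1.83 on day 7 (1.09), 0.459 to 1.32 on day 11 (0.745) and 0.359 to 1.67 on day 15 (0.797). Its day 4 libraries were all above the uninjured ones, and the later days overlapped them. On the log2 scale the fold change was 2.91 ± 0.47 on day 4 (adjusted p = 5.64e-06) and 1.57 ± 0.49 on day 15 (adjusted p = 0.00617), with 14.9% of its exon bases under a gene on the opposite strand. Its receptor Tnfrsf9 (CD137) had 10 counts in uninjured muscle, 400 on day 4, 165 on day 7, 189 on day 11 and 62 on day 15. Tnfrsf9 rose at all 4 days (3.74 ± 0.68 on day 4, adjusted p = 2.32e-05), but not at day 15 without male day 15 replicate 1 (1.70, adjusted p = 0.0725). Both Tnfsf9 and Tnfrsf9 had passed the low-count filter through injured libraries alone.

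Tnfsf8 (the CD30 ligand) had 0 counts in uninjured muscle, 211 on day 4, 37 on day 7, 21 on day 11 and 12 on day 15. It was at least 12.4-fold higher at day 4 against the floor of 6 counts (adjusted p = 9.29e-06) and at least 1.93-fold higher at day 15 (adjusted p = 0.0243), where again the call was lost without male day 15 replicate 1, the only male library with counts (adjusted p = 1). Tnfrsf8 (CD30), found on activated lymphocytes, had 0.250 to 0.763 CPM in uninjured muscle (median 0.540), 0.998 to 1.75 on day 4 (1.25), 0.460 to 1.47 on day 7 (1.08), 0.632 to 1.74 on day 11 (1.30) and 0.582 to 1.5 on day 15 (1.16). Day 4 alone was free of overlap with uninjured muscle. The log2 fold change of Tnfrsf8 was 1.43 ± 0.33 on day 4 (adjusted p = 0.000465) and 1.2 ± 0.34 on day 15 (adjusted p = 0.00333). With libraries thinned to the smallest total it did not pass at any of the 4 days (adjusted p = 0.0588 to 0.173). Nor did it with an added 2-fold threshold (adjusted p = 0.0779 to 0.313).

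Tnfrsf18 (GITR, high on regulatory T cells) had 0.0417 to 0.802 CPM in uninjured muscle (median 0.179), 0.832 to 1.68 on day 4 (1.40), 0.966 to 2.58 on day 7 (1.72), 1.24 to 3.90 on day 11 (1.48) and 0.527 to 1.79 on day 15 (0.612). Day 15 overlapped the uninjured range and the other 3 days did not. Its log2 fold change was 2.53 ± 0.46 on day 4 (adjusted p = 2.57e-05), 3.00 ± 0.47 on day 11 (adjusted p = 3.18e-06) and 1.71 ± 0.48 on day 15 (adjusted p = 0.00301), with 27.2% of its exon bases under a gene on the opposite strand. The 12 T cell markers had a summed level of 3.21 to 4.88 CPM in uninjured muscle, 10.2 to 19.3 on day 4, 14 to 33.5 on day 7, 17.5 to 88.2 on day 11 and 9.45 to 20.2 on day 15. Of the 12, 9, 10, 11 and 8 rose at the 4 days, where 40.1%, 41.6%, 42.7% and 39.7% of all tested genes did. With library size alone 11, 10, 12 and 10 rose. With TMM 1 marker fell at days 4 and 15, where 33% and 29.3% of all tested genes did. The 1 T cell marker that fell, at days 4 and 15, was Foxp3, the factor of regulatory T cells (-1.93 ± 0.46 and -1.20 ± 0.49, adjusted p = 0.000599 and 0.0317), and with library size alone it did not pass at either (-0.64 and -0.19). Female day 11 replicate 2 had the highest T cell sum of all libraries and the highest Tnfrsf18. It also had the highest macrophage marker sum of day 11 (1657 CPM). At day 7 the library with the highest T cell sum (female replicate 2, 33.5 CPM) had 1.03 CPM of Tnfrsf18. The highest Tnfrsf18 of day 7 (male replicate 3, 2.58 CPM) came with a T cell sum of 16.1 CPM. A link was not tested. The GITR ligand Tnfsf18 had 4 counts in uninjured muscle, 65 on day 4, 54 on day 7, 25 on day 11 and 8 on day 15. The day 4 ratio was 5.73 with a 95% counting interval of 2.13 to 21.7 (adjusted p = 0.0393), and leaving out any 1 of 8 libraries ended the call (adjusted p = 0.0522 to 0.0835), while with any 1 of 4 libraries left out it passed at day 7.

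Tnfrsf4 (OX40, best known on activated T cells) was the other member that fell at day 4. It had 6.87 to 18.2 CPM in uninjured muscle (median 8.74), 1.71 to 3.53 on day 4 (2.75), 2.74 to 15.3 on day 7 (7.47), 7.96 to 16.0 on day 11 (8.43) and 8.38 to 11.5 on day 15 (10.3). The day 4 libraries were all below the uninjured ones, and the later days overlapped them. As a log2 fold change this was -1.89 ± 0.31 on day 4 (adjusted p = 5.89e-06) and -0.59 (adjusted p = 0.0779) with library size alone, and it was -0.34 ± 0.30 on day 7, -0.00 ± 0.30 on day 11 and 0.06 ± 0.30 on day 15 (adjusted p = 0.866). Without male day 7 replicate 1 the day 7 value was -0.90 (adjusted p = 0.00109). The T cell marker Cd3e had 0 to 0.361 CPM in the same uninjured libraries (median 0.149), and 0.170 to 0.599 CPM at day 4. Tnfrsf4 on day 4 thus stood at its lowest while the T cell marker sum of that day lay wholly above that of uninjured muscle, and whether these are linked was not tested.

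Tnfrsf25 (DR3, a death domain receptor that co-stimulates T cells) had 2.04 to 6.07 CPM in uninjured muscle (median 3.02), 4.80 to 7.65 on day 4 (6.22), 7.92 to 32.7 on day 7 (13.6), 8.16 to 18.5 on day 11 (14.5) and 10.9 to 18.8 on day 15 (17.5). Its day 4 range overlapped the uninjured one, and days 7, 11 and 15 lay above both. Its fitted log2 fold change was 1.00 ± 0.24 on day 4 (adjusted p = 0.000639), 2.34 ± 0.25 on day 7 (adjusted p = 1.2e-08) and 2.40 ± 0.25 on day 15 (adjusted p = 1.44e-08). Its ligand Tnfsf15 (TL1A) had 1 count in uninjured muscle, 132 on day 4, 93 on day 7, 88 on day 11 and 16 on day 15. The day 4 ratio of Tnfsf15 was 46.6, with a 95% counting interval of 8.21 to 1850 (adjusted p = 0.000219), and its day 15 call was lost without male day 15 replicate 1 or 2 (adjusted p = 0.054 to 0.0601).

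Tnfrsf14 (HVEM, which binds LIGHT and lymphotoxin) had 0.0833 to 0.344 CPM in uninjured muscle (median 0.180), 0.711 to 1.49 on day 4 (1.16), 0.322 to 1.2 on day 7 (0.478), 0.245 to 1.01 on day 11 (0.723) and 0.122 to 0.451 on day 15 (0.223). It rose at days 4, 7 and 11 (2.56 ± 0.42, 1.70 ± 0.43 and 1.82 ± 0.43, adjusted p = 6.12e-06, 0.00102 and 0.000487), with day 4 alone clear of the uninjured range. At day 15 it did not pass the test (0.37 ± 0.47, adjusted p = 0.495). Its ligand Tnfsf14 (LIGHT) had 6 counts in uninjured muscle, 360 on day 4, 124 on day 7, 98 on day 11 and 36 on day 15, a day 4 ratio of 21.2 with a 95% counting interval of 9.63 to 58.1 (adjusted p = 5.47e-06). Tnfsf14 rose at the other 3 days as well (adjusted p = 0.00788 on day 15).

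Tnfrsf19 and Tnfrsf21 were among the best expressed members of uninjured muscle and did not rise. Tnfrsf19 (TROY, an orphan receptor of progenitor cells in several tissues) had 14.5 to 19.6 CPM in uninjured muscle (median 19.1), 9.997 to 13.2 on day 4 (11.1), 8.62 to 16.1 on day 7 (12.9), 7.77 to 17.9 on day 11 (11.1) and 7.13 to 10.5 on day 15 (7.79). Days 4 and 15 lay wholly below uninjured muscle, and days 7 and 11 overlapped it. Its log2 fold change was -0.67 ± 0.16 on day 4 (adjusted p = 0.000465), -0.48 ± 0.16 on day 7, -0.61 ± 0.16 on day 11 and -1.11 ± 0.16 on day 15 (adjusted p = 1.42e-06). With library size alone these were 0.63, 0.65, 0.52 and -0.06, so the direction at days 4, 7 and 11 depends on the scaling. Tnfrsf21 (DR6, a death domain receptor of neurons and lymphocytes) had 33.6 to 61.6 CPM in uninjured muscle (median 44.9), 39.2 to 50.8 on day 4 (46.6), 12 to 57.3 on day 7 (37.2), 30.6 to 45.8 on day 11 (41.0) and 28.4 to 47.9 on day 15 (36.8). Its groups overlapped at every day, with log2 fold changes from -0.36 ± 0.23 on day 7 (adjusted p = 0.158) to -0.01 ± 0.23 on day 4 (adjusted p = 0.963), and 0.70 to 1.28 with library size alone. Without male day 7 replicate 3 or female day 7 replicate 1 the day 7 fall of Tnfrsf21 passed the test (-0.53 and -0.54), as did the day 15 fall without female day 7 replicate 3 (-0.38).

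Levels per kilobase of exon (GENCODE vM21) place the members side by side. In uninjured muscle the order of means was Tnfrsf12a (15.4 CPM per kb, raised by 1 library), Tnfrsf1a (12.4), Tnfrsf21 (11.4), Tnfsf12 (7.77), Tnfrsf4 (7.27) and Tnfrsf19 (3.80). At day 4 it was Tnfrsf1a (40.1 CPM per kb), Tnfrsf12a (30.6), Tnfrsf1b (27.2), Tnfsf12 (15.0), Tnfrsf21 (11.2) and Tnfrsf23 (10.6). At day 15 it was Tnfrsf1a (25.9 CPM per kb), Tnfrsf12a (21.9), Tnfsf12 (19.9), Tnfrsf23 (10.7), Tnfrsf21 (9.02) and Tnfrsf4 (7.43). On this scale of levels Tnfsf12 and Tnfsf10 were the only ligands above 2 CPM per kb in uninjured muscle, and Tnfsf12 alone was at day 4 and day 15. RANK stood at 4.18 CPM per kb and RANKL at 0.378 CPM per kb at day 4, and CD137 at 0.358 and its ligand at 1.71 CPM per kb.

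**Figure D4:**
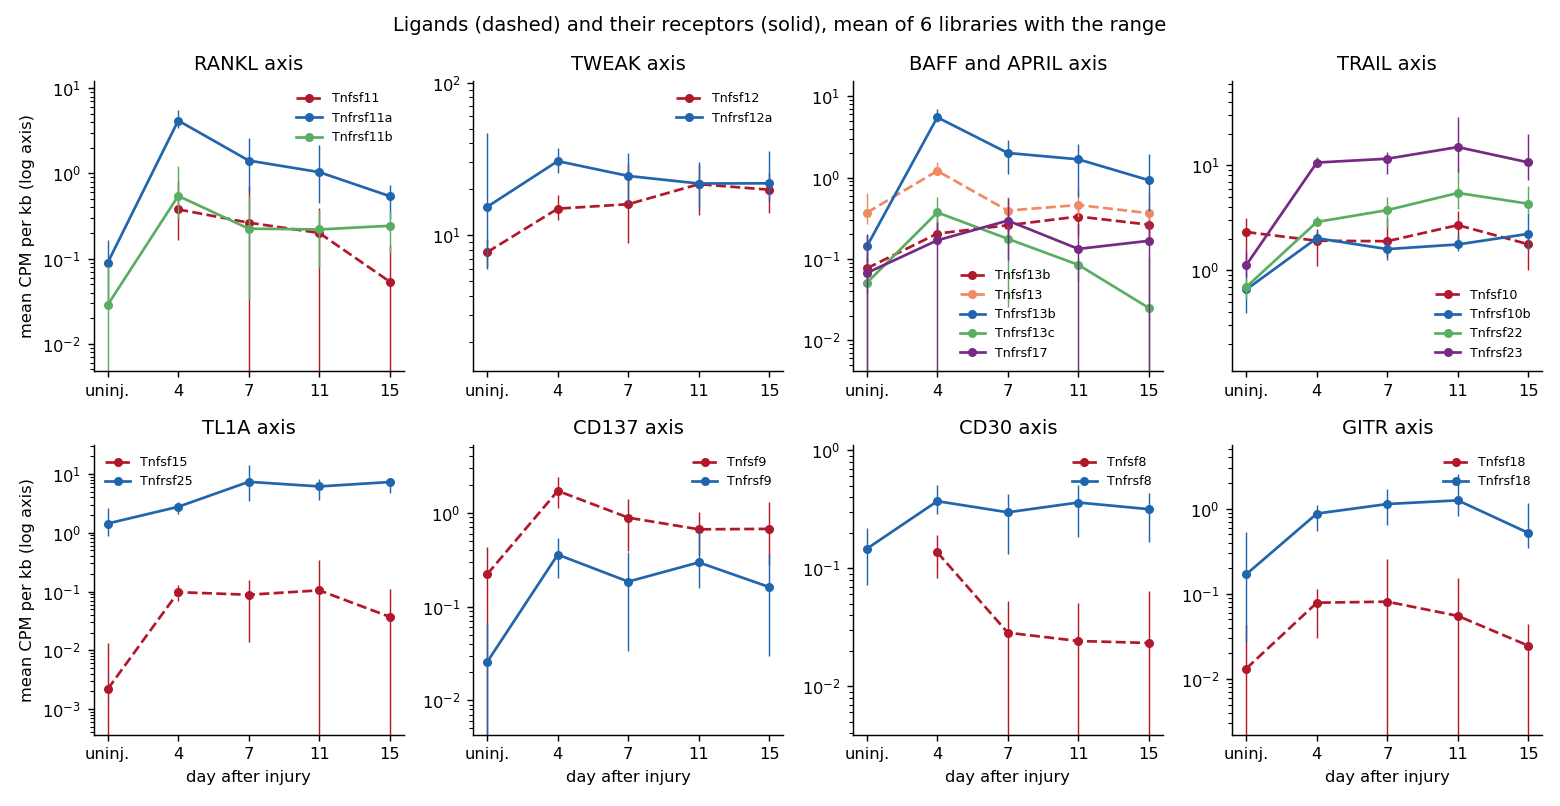
Mean CPM per kb of exon (log axis) at uninjured, day 4, day 7, day 11 and day 15 for the ligands and receptors of 8 axes; bars run from the lowest to the highest of 6 libraries and a bar that reaches the bottom of the axis has its lowest library at 0. RANKL (Tnfsf11) and the CD30 ligand (Tnfsf8) have no uninjured point because all 6 libraries were at 0; RANK lies above RANKL at every day, and the CD137 ligand lies above CD137.

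Between neighbouring times, day 7 against day 4 gave the most calls. At day 7 against day 4, 2 members rose and 6 fell, where 18.5% and 16.7% of all tested genes did and 35.2% passed in all. Tnfrsf25 rose by 1.34 ± 0.23 and Tnfrsf4 by 1.55 ± 0.30 on the log2 scale (adjusted p = 0.000347 and 0.000733). Tnfrsf11a, Tnfrsf13b and Tnfrsf1b had log2 fold changes of -1.56 ± 0.31, -1.45 ± 0.34 and -1.32 ± 0.28 (adjusted p = 0.000747, 0.0026 and 0.00114), and for each all 6 day 7 libraries were below all 6 of day 4. Of the 10 macrophage markers, 8 fell in the same comparison, with a median of -1.08. Tnfsf8 fell by 2.08 and Tnfsf13 by 1.60 (adjusted p = 0.0108 and 0.000347), and the change of Tnfrsf1a (-0.45 ± 0.17, adjusted p = 0.0393) did not pass with any 1 of 6 libraries left out (adjusted p = 0.0502 to 0.127). Tnfrsf11b (-1.24, adjusted p = 0.0505) passed with any 1 of 10 libraries left out. For 1 member the day 7 libraries lay wholly above day 4 and for 6 wholly below, where 5.17% and 7.24% of all genes did.

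No member passed the test at day 11 against day 7: the count was 0 by edgeR and by DESeq2, 2 had an unadjusted p under 0.05, and 0.0584% of all tested genes passed, 0.0408% higher and 0.0175% lower. No member's libraries lay wholly above or below, where 0.21% and 0.134% of all genes did. At day 15 against day 11, 1 member fell and none rose, where 2.25% and 2% of all genes did and 4.24% passed in all. It was Tnfrsf14 (-1.46 ± 0.41, adjusted p = 0.0416), and leaving out any 1 of 13 libraries ended the call. No member's libraries lay wholly above or below those of day 11, where 1.51% and 0.928% of all genes did. At an unadjusted p under 0.05, 10 members passed. Over the whole course, at day 15 against day 4, 3 members rose and 12 fell, where 25.1% and 27% of all genes did and 52.1% passed in all. The rises were Tnfrsf4 (1.95 ± 0.31, adjusted p = 1.51e-05), Tnfrsf25 (1.39 ± 0.24, adjusted p = 3.29e-05) and Tnfrsf22. The 12 falls were Tnfrsf11a (-2.99 ± 0.33, adjusted p = 2.34e-07), Tnfrsf13b (-2.64 ± 0.36), Tnfrsf1b (-2.15 ± 0.29), Tnfrsf13c (-3.89 ± 0.71), Tnfrsf14, Tnfrsf19, Tnfrsf1a, Tnfsf11, Tnfsf13, Tnfsf14, Tnfsf8 and Tnfsf9. That of Tnfrsf19 was -0.44 ± 0.16 (adjusted p = 0.0229) and did not pass with any 1 of 3 libraries left out, male day 15 replicate 3 or female day 15 replicate 2 or 3. For 3 members all day 15 libraries were above those of day 4 and for 10 below, where 16.4% and 19.4% of all genes were.

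Family members with other symbols give the setting. Of the 7 such ligands 5 were tested, and 3, 4, 5 and 5 of them rose at days 4, 7, 11 and 15. The shares of all tested genes that rose were 40.1%, 41.6%, 42.7% and 39.7%. Tnf, the founding member, had 0 to 1.15 CPM in uninjured muscle (median 0.222), 2.70 to 3.81 on day 4 (2.86), 1.33 to 2.94 on day 7 (1.71), 1.14 to 4.36 on day 11 (1.96) and 0.431 to 1.78 on day 15 (1.2). In log2 terms the change was 3.43 ± 0.53 on day 4 (adjusted p = 2.97e-06) and 2.06 ± 0.55 on day 15 (adjusted p = 0.00175). Lta and Ltb, which form lymphotoxin, were highest at day 11. There Lta had 0.284 to 1.74 CPM, against 0 to 0.191 CPM in uninjured muscle (2.67 ± 0.56, adjusted p = 0.000161). Ltb had 1.19 to 8.20 CPM at day 11, against 0.0879 to 0.827 CPM in uninjured muscle (3.09 ± 0.49, adjusted p = 4.01e-06). Fasl had 107 counts at day 4, against 4 in uninjured muscle (adjusted p = 0.000888). Eda, an ectodysplasin, gave -0.14 ± 0.18 on day 4 (adjusted p = 0.488) and 0.85 ± 0.18 on day 11 (adjusted p = 0.000167). Cd40lg and Cd70 had 0 counts in uninjured muscle and were not tested.

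Of 8 receptors with other symbols, 2 rose and 2 fell at days 4 and 7. At day 11, 4 rose and 3 fell, and at day 15, 3 rose and 2 fell. Across all tested genes, 40.1%, 41.6%, 42.7% and 39.7% rose at the 4 days, and 33%, 29.9%, 29.7% and 29.3% fell. With library size alone the lower counts of these receptors were 0, 0, 0 and 1. Eda2r, the ectodysplasin A2 receptor, had 31.6 to 43.4 CPM at day 4 and 29.3 to 57.9 on day 15, against 5.49 to 8.85 CPM in uninjured muscle (2.42 ± 0.20 and 2.48 ± 0.20, adjusted p = 1.02e-10 and 3.7e-10). Cd40 had 6.64 to 9.72 CPM at day 4, against 0.725 to 2.17 CPM in uninjured muscle (2.53 ± 0.31, adjusted p = 6.7e-08). Relt, an orphan receptor, had 17.2 to 19.98 CPM at day 4 and 11.5 to 13.9 on day 15, against 28.4 to 49.8 CPM in uninjured muscle. Its log2 fold changes were -0.97 ± 0.18 on day 4 and -1.51 ± 0.18 on day 15 (adjusted p = 3.64e-05 and 1.34e-07), and 0.33 and -0.48 with library size alone. Fas, the receptor of the Fas ligand, gave -0.99 ± 0.17 on day 4 (adjusted p = 9.85e-06; 0.31 with library size alone) and 0.52 ± 0.17 on day 15 (adjusted p = 0.00804). Cd27 and Ltbr rose at day 11 (1.37 ± 0.36 and 0.28 ± 0.12, adjusted p = 0.00153 and 0.0364), and neither passed at the other days. For Cd27 the sexes went opposite ways, with means of 4.78 CPM at day 11 against 0.437 CPM in uninjured muscle in females, and 2.44 CPM at day 11 against 3.99 CPM in uninjured muscle in males, where 1 uninjured library reached 6.38 CPM; this difference was not tested. Ngfr, the p75 neurotrophin receptor, gave -0.89 ± 0.29 on day 11 (adjusted p = 0.00728; 0.26 with library size alone) and -1.36 ± 0.30 on day 15 (adjusted p = 0.000258), and Edar passed at none.

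Of 24 adaptors and death signalling genes downstream of these receptors, 13 rose and 5 fell at day 4, 11 and 3 on day 7, and 12 and 4 at days 11 and 15, with median log2 fold changes of 0.40, 0.15, 0.31 and 0.37. Of all tested genes, 40.1%, 41.6%, 42.7% and 39.7% rose at the 4 days, and 33%, 29.9%, 29.7% and 29.3% fell. With library size alone all 24 rose at each day. The 3 largest at day 4 were Traf1, an NF-kappaB-induced adaptor (4.03 ± 0.37, adjusted p = 7.22e-10), Ripk3, the necroptosis kinase (3.52 ± 0.27, adjusted p = 3.96e-11), and Traf4 (2.91 ± 0.21, adjusted p = 2.35e-11). Traf1 had 9.74 to 15.2 CPM at day 4, against 0.333 to 1.11 CPM in uninjured muscle. Birc3 (cIAP2) rose by 1.12 ± 0.16 on day 4 (adjusted p = 1.12e-06). Of 13 NF-kappaB subunits, inhibitors and kinases, 9, 6, 5 and 9 rose at the 4 days and 1 fell at each. At days 7 and 11 the rises lie near the shares of all genes given above. With library size alone 12 of the 13 rose at each day. Their largest day 4 values were Nfkbie (3.98 ± 0.36, adjusted p = 5.78e-10), Bcl3 (3.62 ± 0.30, adjusted p = 1.1e-10) and Tnfaip3 (A20; 1.71 ± 0.37, adjusted p = 0.000192), all of which restrain or tune NF-kappaB. Nfkb2, the subunit of the non-canonical pathway, had 55.5 to 69.9 CPM at day 4, against 19.1 to 28.0 CPM in uninjured muscle (1.38 ± 0.19, adjusted p = 5.69e-07).

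The remaining cell type markers moved as follows, and their part in the members' changes was not tested. Beside them, 40.1%, 41.6%, 42.7% and 39.7% of all tested genes rose at the 4 days, and 33%, 29.9%, 29.7% and 29.3% fell. All 6 NK cell markers rose at days 4, 7 and 11 and 5 on day 15, and 5 of 7 dendritic cell markers rose at every day. The 5 tested neutrophil markers all rose at days 4 and 7, and 4 did at days 11 and 15; Ly6g was at 0 in uninjured muscle. Fibroblast markers rose in 6, 5, 7 and 7 of 8 at the 4 days, and 1, Pi16, fell at day 4 (-0.83 ± 0.32, adjusted p = 0.0243; 0.46 with library size alone), with Pdgfra at 42.8 to 67.6 CPM at day 4, against 6.95 to 13.0 CPM in uninjured muscle. Satellite cell and myoblast markers rose in 7, 6, 4 and 4 of 7, and 1, Cdh15 (M-cadherin), fell at days 7, 11 and 15 (-0.63, -1.35 and -1.85; 0.56, -0.21 and -0.81 with library size alone). Among the rises, Myog had 401 to 539 CPM at day 4, against 6.29 to 13.3 CPM in uninjured muscle. Mature fibre markers fell in 8, 8, 7 and 7 of 8, and in 7, 6, 6 and 5 with library size alone, and Ckm, muscle creatine kinase, had 321 to 2567 CPM at day 4, against 19790 to 37100 CPM in uninjured muscle. Endothelial markers fell in 5, 3, 3 and 2 of 8 and rose in 5 on day 15, while with library size alone 6, 6, 6 and 7 rose. Pecam1 had 173 to 223 CPM at day 15, against 102 to 153 CPM in uninjured muscle (0.54 ± 0.15, adjusted p = 0.00228), and did not pass at the other days.

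No member differed between the sexes by the adjusted test. In uninjured muscle 0 of 30 passed for females against males, where 0.642% of all tested genes did, and DESeq2 also gave 0. At an unadjusted p under 0.05 there were 5 members, of which Tnfrsf11a had the smallest p (log2 difference of females minus males -1.83, adjusted p = 0.201). Its uninjured female libraries had 0.167, 0.264 and 0.276 CPM, against 0.722, 0.797 and 0.992 CPM in male ones, so these 3 and 3 libraries did not overlap. For a sex difference in the response over the 4 days 0 of 30 passed, where 0.035% of all genes did, and 5 had an unadjusted p under 0.05, with the smallest p in Tnfrsf23 (adjusted p = 0.683). The highest female day 11 value of Tnfrsf23, 114 CPM, is from the library labelled female day 11 replicate 3, whose Y-linked transcripts go against that label. Without it, 0 of 30 passed, 4 had an unadjusted p under 0.05, and Tnfrsf23 had an adjusted p of 0.553. With 3 libraries per sex and time, differences of moderate size could be missed.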

How the data were processed

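Per the labels' protocols, extraction of total RNA and library preparation for all 30 samples were done by a commercial laboratory. The submitters' processing notes name STAR, edgeR and the mm39 build, with no versions. The deposited files hold 1 raw count per gene symbol and library, made by the authors. Which program, annotation and strand setting made the counts is not given in the sources used here. In each library 65.5 to 77.5% of counts from 1 to 20 were even numbers, so 1 read pair may count as 2.

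Genes were kept by filterByExpr (17136 of 26264) and fitted in 1 model of 10 group means with edgeR 4.0.16 in R 4.3.3 (TMM, glmQLFit, glmQLFTest, sexes weighted equally), with Benjamini-Hochberg adjustment over all tested genes. SE values come from the same fit. The 95% counting intervals and the floor of 6 counts cover counting error only. The intervals treat each count as a separate read, so they are too narrow if a read pair was counted more than once. Members with a mean of at least 1 CPM at some time are given with their ranges, and others by counts. Other genes came from lists, naming the 3 called genes with the largest day 4 change, plus genes always reported. Members and lists were chosen with earlier results of these data known.

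Replicate numbers did not pair the libraries (mean residual correlation of same-numbered libraries 0.0125). No library was left out. Replicates differed beyond counting noise (lowest chi-square per degree of freedom 15.4). Alternatives were RLE scaling, library size alone, 2 other filters, DESeq2 1.42.0, an added 2-fold threshold, only the compared groups, thinning, halved counts, a replicate block and each library left out. The fit was tested on simulated data.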

Additional observations from a re-analysis of the deposited data

Results flagged for a closer look

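In each of the 22 members given by range, the 6 libraries of each time were screened for 1 library that stands apart by Dixon's ratio. Of 110 such groups 10 held one, and chance gives about 1 in 20.

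Tnfrsf12a was at 68.5 CPM in female day 15 replicate 2, and at 32.6 to 41.4 CPM in the other 5 libraries. Tnfrsf18 was at 1.79 CPM in female day 15 replicate 1, and at 0.527 to 0.660 CPM in the others. That library also had the highest macrophage marker sum and the highest T cell marker sum of that day. Tnfrsf25 was low in female day 15 replicate 3, at 10.9 CPM, with the others at 17.1 to 18.8 CPM. Tnfsf10 was low in female day 15 replicate 1, at 5.30 CPM, with the others at 9.45 to 10.6 CPM. Tnfrsf22 was at 26.6 CPM in male day 15 replicate 3, and at 14.9 to 18.0 CPM in the others.

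The library labelled female day 11 replicate 3, whose Y-linked transcripts go against its label, stood apart in 2 members. Tnfrsf22 was at 40.0 CPM there, with the others at 16.1 to 21.5 CPM, and Tnfrsf4 at 16.0 CPM, with the others at 7.96 to 9.98 CPM. The remaining 3 were Tnfsf13b at 2.26 CPM in female day 4 replicate 3 (others 1.02 to 1.37 CPM), Tnfrsf4 at 18.2 CPM in male uninjured replicate 1 (others 6.87 to 8.86 CPM) and Tnfsf13 at 1.04 CPM in male uninjured replicate 2 (others 0.440 to 0.611 CPM).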

How the results depend on the processing

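With library size alone no member fell at days 4, 7, 11 or 15 against uninjured muscle (0 at each). Of all genes, 8.65%, 7.07%, 8.08% and 7.94% did. Signs turned in Tnfrsf19 (0.63, 0.65 and 0.52 at days 4, 7 and 11), Tnfrsf21 (1.28, 0.74, 0.90 and 0.70 at the 4 days), Tnfsf10 (1.00, 0.81 and 0.63 at days 4, 7 and 15), Tnfrsf4 (0.83 and 1.15 at days 7 and 11) and Tnfsf13 (1.01 on day 15). They also turned in Eda (1.16) and Relt (0.33) on day 4, Fas (0.31, 0.46 and 0.70) and Pecam1 (1.03, 0.81 and 1.10) at days 4, 7 and 11, Ngfr (0.93 and 0.26) at days 7 and 11, and Cd27 (0.86) and Ltbr (1.01) on day 15. With an added 2-fold threshold 1 member fell at day 4 and 0 at days 7, 11 and 15, and 12 rose at day 15. Of all 17136 tested genes, 2460, 1719, 1944 and 1641 fell at the 4 days and 3658 rose at day 15. At day 7 against day 4, 0 members rose and 0 fell, where 48 and 31 of all genes did. At day 15 against day 11, 0 members fell, where 3 of all genes did. At day 15 against day 4, 1 member rose and 7 fell, where 954 and 1159 of all genes did. With libraries thinned to the smallest total 1 member fell at day 4, 0 at days 7 and 11, and 2 on day 15. Of all genes, 4911, 4350, 4323 and 4156 fell at the 4 days. The thinning ended the rise of Tnfrsf8 at all 4 days. It also ended those of Tnfsf18 at day 4, Tnfrsf13c at day 7 and Tnfsf8 at days 11 and 15. At day 15 the rises of Tnfrsf18, Tnfsf11, Tnfsf14 and Tnfsf15 were lost as well. For day 15 against day 11 the falls were 0 with no low-count filter or only the compared groups, and 4 by DESeq2. They were 5 without female day 4 replicate 2 and the library labelled female day 11 replicate 3, an alternative chosen after seeing the data. Of all genes, 364 of 21891 fell with no low-count filter. Of 17136 genes, 122 fell with only the compared groups, 737 by DESeq2 and 912 with those 2 libraries left out. With only the compared groups 19 members fell at day 15 against day 4, where 5361 of 17136 genes did. The cause was not tested.

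Leaving out each library in turn gave 24 to 25 rises at day 4, 22 to 24 at day 7, then 21 to 22 at day 11 and finally 16 to 21 at day 15, and 2 to 2, 1 to 2, 1 to 1 and 1 to 2 falls. It gave 2 to 3 rises and 5 to 8 falls at day 7 against day 4, 0 to 5 falls at day 15 against day 11, and 3 to 3 rises and 11 to 15 falls at day 15 against day 4. The second fall at day 7 came without male day 7 replicate 1 or 3 or female day 7 replicate 1, and at day 15 without female day 15 replicate 2 or female day 7 replicate 3. The 1 fall at day 15 against day 11 moved with any 1 of 16 libraries left out. Over all members and contrasts, leaving out a library kept 7074 values on their side of the threshold, ended the call in 64, made one in 62 and reversed 0. The other alternatives kept 2458, ended 80, made 57 and reversed 13. A reversal was counted only where the value passed the test in either fit. Values that passed in neither count as kept, even where their sign changed.

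Libraries with the same replicate number had a mean correlation of residuals of 0.0125 (135 pairs), while unlike numbers gave -0.00633 (270 pairs), and for 12 of 30 the closest library bore the same number. The replicate block gave 25 rises and 2 falls at day 4, 24 and 1 on day 7, 21 and 1 on day 11, 20 and 1 on day 15, 2 and 7 on day 7 against day 4, and 3 and 12 on day 15 against day 4, so it moved no count by over 1.5 times. Depth limits the members under 1 CPM most, at day 15, and thinning ended the calls of Tnfrsf8 as well.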
